A study of Mus musculus with 18 samples.

Results

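T cell receptor gene segments were described through every probe set of the array whose listed gene symbols were all V, J or C segments of the alpha, beta, gamma or delta locus. The rule found 35 of 24922 probe sets, and all 35 carried V segments: 30 of the alpha locus, 3 of the gamma locus, 1 of the delta locus and 1 of the beta locus. No J or C probe set met it. The rule reads names and no measured values. Each probe set is called here by its number, because its symbols are a weak identity: 26 of the 35 listed several symbols, and Trav3-3 stood among the symbols of 19. The 35 listed 25 different symbols, of 266 segments of these kinds in the RefSeq gene table.

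The arrays (Affymetrix Mouse Gene 1.0 ST) measured sorted immune cells of male C57BL/6 mice, labelled B6, at 6 weeks of age, after a subcutaneous dose of 10000 U of IFNg. Every group had received IFNg, and all 18 arrays were labelled 2 h; time points other than this and mice without IFNg were not analysed here. The 9 populations had 2 arrays each, and the labels leave it unsaid whether these stem from different mice. A p-value here therefore weighs a difference against the spread between arrays, which may be technical. From spleen came Tgd (gated on the gamma delta receptor and without TCRB), NKT (TCRB with NK1.1), Treg (TCRB with CD4 and CD25), T8 (TCRB with CD8) and T4 (TCRB with CD4, no gate on CD25 being listed). Also from spleen came NK (NK1.1 without TCRB), DC (CD11c, MHCII and Flt3) and GN (Ly6G), while MF were F4/80+ ICAM2+ cells of the peritoneal cavity. Below, the alpha beta T populations are NKT, Treg, T8 and T4, and the TCR-negative populations are NK, DC, GN and MF, although the listed gates of DC, GN and MF name no T cell receptor and the NK gate names only TCRB.

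A T cell receptor is a pair of chains, alpha with beta or gamma with delta, held at the surface by the CD3 chains. Each chain's variable end is assembled in the developing T cell by joining a V segment to a J segment, in beta and delta with a D segment between them, so each T cell clone transcribes only a few of the many V segments. The delta locus lies inside the alpha locus, and some V segments, written with dv in their names, can be joined to either chain. Invariant NKT cells share 1 alpha chain, joined from Trav11 and Traj18, and pair it with a small set of beta V segments that includes Trbv1; Trav11 is not among the segments measured here.

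Values are log2 of the deposited RMA intensity, a level that cannot be set against that of another probe set. On these arrays the lower quartile of all probe sets lay at 5.98 to 6.20 and the upper quartile at 8.53 to 8.94. Replicate arrays of a population correlated at r = 0.9901 to 0.9960 across all probe sets. The summed intensity of the 4 CD3 chains was 14359 to 17474 on the 10 T cell arrays, 1930 and 2017 in NK, 426 and 432 in DC, 519 and 525 in GN and 379 and 406 in MF, so all 5 gated T populations carried the defining markers of T cells. Foxp3, the defining transcription factor of regulatory T cells, was at 12.01 ± 0.25 in Treg and at 9.97 ± 0.05 in T4, the highest level outside Treg (SD, n = 2 each). DC replicate 2 stood apart with a granulocyte marker sum of 16461, against 4748 in DC replicate 1; GN had 60139 and 66846. In bulk samples, fewer cells that use a segment and less of its RNA per cell cannot be told apart.

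Segments of every locus differed between the populations. All 35 passed the moderated F test of limma over the 9 populations, which needed an adjusted p under 0.05 (Benjamini-Hochberg, over the whole array) and a range of population means of at least 1 on the log2 scale, which is 2-fold. Of all probe sets, 39.4% passed. The members' ranges had a median of 4.15, against 0.73 over all probe sets, and ran from 1.04 for 10414805 to 8.96 for 10407940. The range of 10414805 was 0.99 without DC replicate 2, and the count was then 34. Over the 5 T populations alone, 29 of 35 passed (24 of 30 alpha, all 3 gamma, the delta and the beta probe set), where 6.96% of all probe sets did, and the 6 that did not were alpha probe sets with ranges of 0.39 to 0.98. The highest mean lay in T4 for 21 alpha probe sets, in T8 for 5 and in Tgd for 4, in Tgd for the gamma and delta ones and in NKT for Trbv1. The map of all members by array shows these groups side by side.

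**Figure D1:**
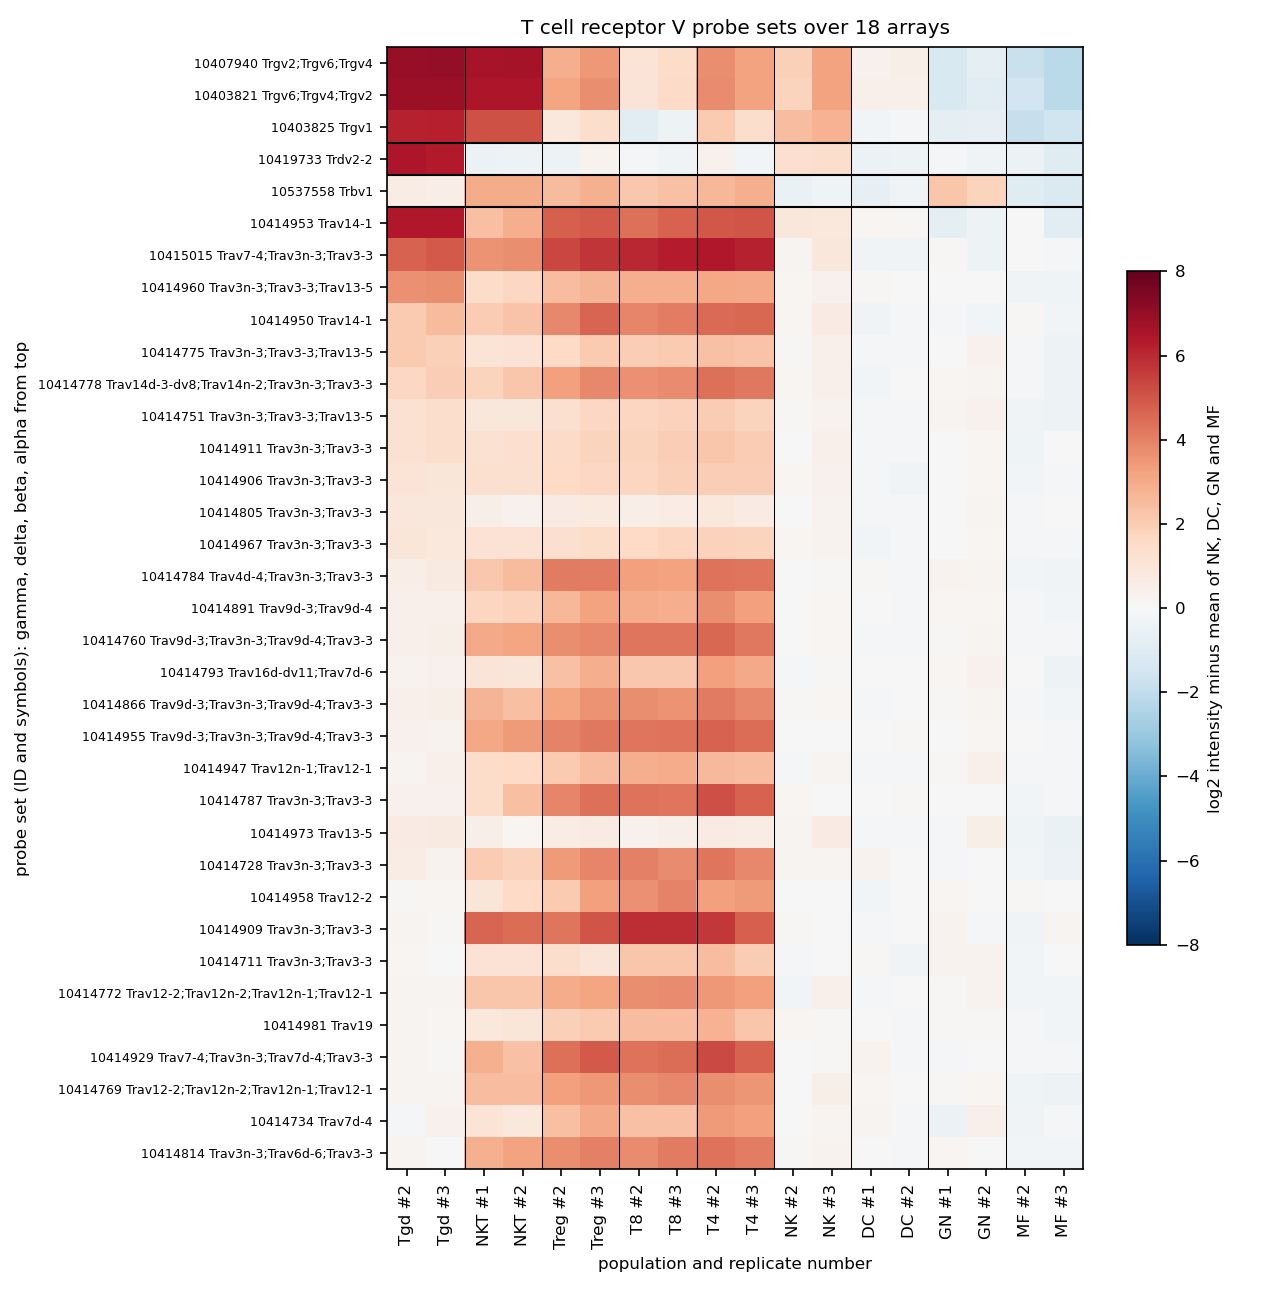
Each row is 1 V probe set and each column 1 array, in the order Tgd, NKT, Treg, T8, T4, NK, DC, GN, MF; colour gives log2 intensity minus the mean of that probe set over NK, DC, GN and MF. Gamma rows are strong in Tgd and NKT, the delta row in Tgd, and most alpha rows in NKT, Treg, T8 and T4 but not in Tgd.

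Tested together, the 5 T populations stood above the 4 TCR-negative ones for 33 of 35 members, where 2.96% of all probe sets passed in that direction. None of the 35 was lower by limma at an adjusted or an unadjusted p under 0.05, while 4.67% of all probe sets passed as lower. The median difference over the members was 2.69, against 0.02 over all probe sets. The largest, 5.29 ± 0.10 (SE, adjusted p = 2.79e-16), belonged to 10415015, listed as Trav7-4 with Trav3-3 and Trav3n-3. Its T cell arrays read 6.86 to 9.65 and its TCR-negative arrays 2.84 to 4.15, with no overlap. The 2 that did not pass were 10414805 (Trav3-3 with Trav3n-3), at 0.66, and 10414973 (Trav13-5), at 0.54; both had adjusted p-values under 0.05 and missed only the 2-fold limit. On 18 members, all alpha, every T cell array lay above every TCR-negative array.

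Gamma V segments were highest in Tgd, with NKT close behind and T8 the lowest of the T populations. Gamma chains pair with delta chains, and the 3 probe sets were 10403825, listed as Trgv1 alone, and 10403821 and 10407940, each listed as Trgv2, Trgv4 and Trgv6. Trgv1 read 12.95 and 13.02 in Tgd, 11.88 and 11.89 in NKT, 7.65 and 8.21 in Treg, 5.96 and 6.38 in T8, and 8.90 and 8.16 in T4. In the TCR-negative populations it read 9.25 and 9.58 in NK, 6.56 and 6.64 in DC, 5.99 and 6.10 in GN, and 4.96 and 5.17 in MF. Both NK arrays thus lay above all arrays of Treg, T8 and T4, and the T8 arrays overlapped those of GN. T4 and Treg also overlapped each other.

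The Trgv2, Trgv4 and Trgv6 probe set 10403821 read 13.57 and 13.60 in Tgd, 13.22 and 13.24 in NKT, 9.88 and 10.44 in Treg, 7.79 and 8.27 in T8, and 10.53 and 9.96 in T4. Its TCR-negative values were 8.56 and 9.97 in NK, 7.16 and 7.16 in DC, 5.52 and 5.85 in GN, and 5.19 and 4.59 in MF. The NK arrays were 1.41 apart, the largest gap between replicates of any member in any population, and their range reached into those of Treg and T4. The second probe set of the same symbols, 10407940, followed it over the individual arrays at r = 0.9993, a description that includes replicates. This second probe set read 13.36 and 13.41 in Tgd and 13.00 and 13.05 in NKT. The Tgd mean exceeded that of NKT by 0.36 on both of these probe sets and by 1.103 on Trgv1.

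Set against the mean of the alpha beta T populations, 6 members were higher in Tgd, where 0.710% of all probe sets passed in that direction, and 21 were lower, where 0.317% did. The 3 gamma probe sets were among the 6: Trgv1 was higher by 4.36 ± 0.17 (adjusted p = 9.19e-11), 10403821 by 3.17 ± 0.27 (adjusted p = 9.97e-07) and 10407940 by 3.33 ± 0.25 (adjusted p = 2.32e-07). Without NKT, a setting chosen after the values were seen, these differences were 5.45, 4.11 and 4.32. NKT themselves stood above the mean of T4 and T8 by 4.54 ± 0.19 on Trgv1 (adjusted p = 1.08e-10), 4.09 ± 0.30 on 10403821 and 4.24 ± 0.28 on 10407940. These were the only members higher in that comparison, where 1.60% of all probe sets passed as higher. The delta segment Trdv2-2, a marker of gamma delta T cells, was at 5.50 and 5.56 in NKT, within the range of the myeloid arrays, and differed by -0.36 ± 0.18 from the mean of T4 and T8 (adjusted p = 0.189). Of 5 further gamma delta markers, 4 had their highest mean in Tgd: Sox13, at 8.40 in Tgd and 7.80 in NKT, Blk, at 8.95 in Tgd and 7.09 in NKT, Il17re, at 7.85 in Tgd and 6.94 in NKT, and Cd163l1, at 8.34 in Tgd and 7.16 in NKT. Blk is also 1 of 7 measured B cell markers. Of these 7, 3 passed by limma as higher in Tgd than in the alpha beta T populations (7 at an unadjusted p under 0.05). Their sum was 2656 and 2847 in Tgd and 805 and 807 in NKT, and the part of B cells in the Blk value was not tested. Maf, a transcription factor that other T cells also use, was highest in NKT, at 11.25, against 9.96 in Tgd, 6.77 in T8 and 9.40 in T4. It was the 1 marker of the 5 that passed as higher in NKT than in the mean of T4 and T8. In NKT the sum of the 5 was mostly Maf, the other 4 reading 6.94 to 7.80 there. That sum was 3084 and 3053 in NKT, 666 and 745 in T8, 1175 and 1253 in T4 and 2261 and 2533 in Tgd. In MF it was 1850 and 1679. The part of gamma delta T cells in the NKT gamma values was not tested.

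T8 was lower than T4 on all 3 gamma probe sets, by -2.36 ± 0.22 on Trgv1 (adjusted p = 5.81e-06), -2.21 ± 0.34 on 10403821 (adjusted p = 0.000965) and -2.17 ± 0.32 on 10407940 (adjusted p = 0.000599). The arrays of T8 and T4 did not overlap on any of the 3. NKT marker intensity (Zbtb16 and Klrb1c, the gene of NK1.1) moved with this, at 217 and 258 in T8 and 512 and 433 in T4, against 7276 and 7160 in NKT. At this level the sum does not mark NKT cells alone, as it was 871 and 616 in GN and 1097 and 1214 in MF. Klrb1c by itself read 5.82 in T8, 6.61 in T4 and 6.71 in DC. The part of NKT cells in the difference was not tested. Treg and T4 differed by -0.60 to -0.08 on the 3 probe sets, and none of these passed. The NKT marker intensity of Treg was nevertheless near that of T8, at 288 and 246.

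**Figure D2:**
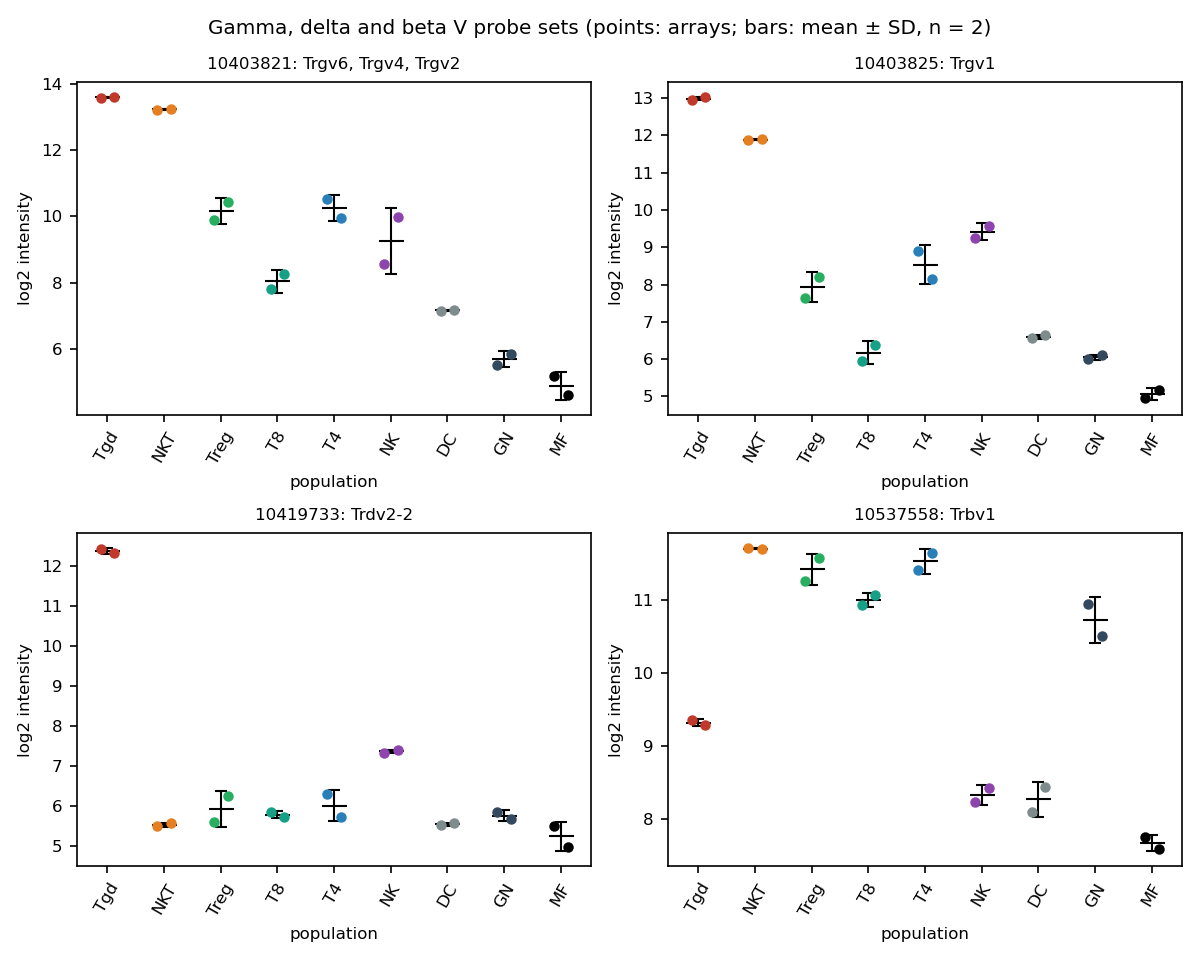
Points are arrays, horizontal bars population means and error bars SD (n = 2), as log2 intensity, for the gamma probe sets 10403821 and 10403825, Trdv2-2 and Trbv1; the vertical axes do not start at 0. Trgv1 lies at 11.88 or above only in Tgd and NKT, Trdv2-2 at 12.34 or above only in Tgd, and Trbv1 in GN lies at 10.50 and 10.95.

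Trdv2-2 was the sharpest mark of Tgd among the members. This delta V segment (10419733) read 12.44 and 12.34 in Tgd and 7.33 and 7.39 in NK. It read 5.50 and 5.56 in NKT, 5.60 and 6.25 in Treg, 5.84 and 5.72 in T8, 6.29 and 5.73 in T4, 5.51 and 5.56 in DC, 5.85 and 5.66 in GN and 5.50 and 4.98 in MF. Outside Tgd and NK all arrays lay between 4.98 and 6.29, near or below the lower quartile of the arrays, and these populations overlapped. Tgd exceeded the mean of the alpha beta T populations by 6.58 ± 0.16 (adjusted p = 3.34e-13) and NK by 5.02 ± 0.20 (adjusted p = 7.24e-11). The difference of 1.15 ± 0.10 between all 5 T populations and the TCR-negative ones rests on Tgd, the other 4 T populations lying below NK.

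NK carried gamma and delta V signal above the myeloid populations. Against the mean of DC, GN and MF, 5 members were higher in NK, where 4.86% of all probe sets passed. They were Trgv1, by 3.52 ± 0.18 (adjusted p = 1.29e-10), 10403821 by 3.35 ± 0.28, 10407940 by 3.42 ± 0.26, Trdv2-2 by 1.85 ± 0.17 (adjusted p = 1.53e-07) and the alpha probe set 10414953 by 1.16 ± 0.18 (adjusted p = 5.67e-05). None was lower by limma, where 5.81% of all probe sets were, and 1 member, Trbv1 at -0.56, was lower at an unadjusted p under 0.05. On the 30 alpha members the median difference was small, at 0.18, but the NK mean lay above the myeloid mean on 27. Over all 35 members, 16 were higher in NK at an unadjusted p under 0.05. Several alpha members missed only the 2-fold limit, among them 10415015 at 0.72 ± 0.17 (adjusted p = 0.00211) and 10414973 at 0.58 ± 0.13 (adjusted p = 0.00235). Of the 4 CD3 chains, 3 were higher in NK than in the myeloid populations: Cd3g by 3.49 ± 0.18, Cd247 by 2.91 ± 0.13 and Cd3e by 1.02 ± 0.14. Cd3d differed by 0.68 ± 0.14, under the 2-fold limit, with 7.04 in NK and 7.13 in GN. Of the 5 gamma delta markers, none passed by limma and 1, Maf, was higher at an unadjusted p under 0.05; their median difference was -0.02. The listed NK gate names no gamma delta receptor, and the part of gamma delta T cells in the NK values was not tested.

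DC exceeded the mean of GN and MF past both thresholds on the 3 gamma probe sets alone, where 4.84% of all probe sets passed as higher. The differences were 1.87 on 10403821, 1.04 on Trgv1 and 1.89 on 10407940, and the Trgv1 value fell under the 2-fold limit, at 0.99, without MF replicate 2. At an unadjusted p under 0.05, 6 members were higher in DC. Among them, the alpha probe set 10414953, at 0.62 ± 0.19 (adjusted p = 0.0172), missed only the 2-fold limit. No member passed as lower by limma, where 3.61% of all probe sets did, and 2 were lower at an unadjusted p under 0.05; Trbv1, at -0.93, passed without DC replicate 2 (-1.101) or without GN replicate 2 (-1.04). The summed CD3 intensity was 432 and 426 in DC, 525 and 519 in GN and 406 and 379 in MF. NK markers moved with the gamma values: 4 of 6 measured passed as higher in DC (6 at an unadjusted p under 0.05), with a median difference of 1.49. Their sum was 808 and 1153 in DC, 274 and 248 in GN and 191 and 183 in MF, against 28586 and 28412 in NK. Klri2, a receptor gene of NK cells, read 8.40 in DC, 4.21 in GN and 3.76 in MF, and Ncr1, another, read 7.91 in DC, 5.21 in GN and 4.93 in MF. The part of NK cells in the DC values was not tested.

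The only beta V segment measured, Trbv1 (10537558), was highest in NKT and low in Tgd, with a level in GN near that of T8. It read 9.35 and 9.28 in Tgd, 11.70 and 11.70 in NKT, 11.26 and 11.57 in Treg, 10.93 and 11.06 in T8, and 11.40 and 11.64 in T4. Its TCR-negative levels were 8.23 and 8.42 in NK, 8.10 and 8.44 in DC, 10.95 and 10.50 in GN, and 7.75 and 7.59 in MF. Tgd were lower than the alpha beta T populations by -2.09 ± 0.12 (adjusted p = 1.27e-08), with no overlap of arrays. Against NK, Tgd differed by 0.99 ± 0.16 (adjusted p = 0.000288), just under the 2-fold limit. NKT differed from the mean of T4 and T8 by 0.44 ± 0.14 (adjusted p = 0.039), also under that limit.

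One GN array on Trbv1 reached into the range of T8, and the other lay below all alpha beta T arrays and above all Tgd, NK, DC and MF arrays. The 5 T populations exceeded the TCR-negative ones by 2.24 ± 0.07 with GN and by 2.90 without it, a setting chosen after the values were seen. The summed CD3 intensity was 525 and 519 in GN, against 432 and 426 in DC and 406 and 379 in MF. It was 1930 and 2017 in NK and 15292 and 16123 in T8. The part of T cells in the GN value was not tested. In the reference gene order Mgam, the gene of the enzyme maltase-glucoamylase, lies 4 places before Trbv1, and it read 12.71 ± 0.04 in GN and 9.31 ± 1.19 in DC, against means of 6.00 to 6.19 in the other populations. Clec5a, a myeloid receptor gene 6 places before Trbv1, read 11.56 in GN, 7.89 in DC and 8.54 in MF, against 4.67 to 5.06 in the T and NK populations. Nearer by, Moxd2 read 5.84 ± 0.01 in GN, against means of 5.14 to 5.38 elsewhere, and Prss58 read 5.05 ± 0.15 in GN, against 4.87 to 5.19. A link between these genes and the Trbv1 value was not tested.

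The alpha V probe sets separated alpha beta T cells from Tgd, but not uniformly. The median level over the 30 was 7.41 and 7.46 in Tgd, 8.80 and 8.61 in NKT, 9.30 and 9.58 in Treg, 9.66 and 9.69 in T8, and 9.90 and 9.72 in T4. It was 6.87 and 7.01 in NK, 6.71 and 6.69 in DC, 6.89 and 7.08 in GN, and 6.64 and 6.58 in MF. Against the alpha beta T populations, 20 of 30 were lower in Tgd, 2 were higher and 8 did not pass. On 20, both Tgd arrays lay below every alpha beta T array. The median difference was -1.97 over the 30, against 0.00 over all probe sets.

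The largest difference was that of 10414909, listed as Trav3-3 with Trav3n-3. It read 3.48 and 3.40 in Tgd, against 7.94 and 7.73 in NKT, 7.54 and 8.31 in Treg, 9.20 and 9.19 in T8, and 8.95 and 8.05 in T4. Its TCR-negative arrays read 3.01 to 3.55, so the Tgd arrays lay within their range, and the difference from the alpha beta T populations was -4.92 ± 0.20 (adjusted p = 1.42e-10). The next were 10414929 (Trav7-4 and Trav7d-4 with both Trav3 symbols), at -4.04 ± 0.15, 10414955 (Trav9d-3 and Trav9d-4 with both Trav3 symbols), at -3.74 ± 0.10, and 10414814 (Trav6d-6 with both Trav3 symbols), at -3.65 ± 0.13. After these came 10414787 at -3.49 ± 0.17, 10414760 at -3.49 ± 0.10 and 10414769, listed with 4 Trav12 symbols, at -3.07 ± 0.11. All adjusted p-values of these 7 were at or below 1.72e-09.

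Tgd exceeded NK on some alpha probe sets by wide margins and on most by little. Both populations were sorted without TCRB, and 12 of the 35 members were higher in Tgd than in NK, where 1.83% of all probe sets passed as higher; 20 were higher at an unadjusted p under 0.05. None was lower by limma at an adjusted or an unadjusted p under 0.05, where 1.88% of all probe sets passed as lower. The 12 were the 3 gamma probe sets, Trdv2-2 and 8 alpha probe sets. The differences of these 8 ran from 1.102 to 5.52, and those of the other 22 from -0.05 to 0.78, the split being that of the thresholds themselves. Several of the 22 missed only the 2-fold limit, among them 10414906 at 0.78 ± 0.11 (adjusted p = 0.000139), 10414967 at 0.67 ± 0.10 (adjusted p = 0.000268), 10414805 at 0.78 ± 0.13 (adjusted p = 0.000429) and 10414784 at 0.56 ± 0.13 (adjusted p = 0.00601). The excess of the alpha beta T populations over NK had a median of 2.71 on the 8 and of 2.90 on the 22.

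The largest of the 8 differences was 5.52 ± 0.22 for 10414953 (Trav14-1, adjusted p = 4.7e-11). It was followed by 10415015 at 4.29 ± 0.20 (adjusted p = 3.8e-10) and 10414960, listed as Trav13-5 with both Trav3 symbols, at 3.46 ± 0.11 (adjusted p = 3.26e-12). The rest were 10414950 at 1.96, 10414775 at 1.75, 10414778 at 1.54, 10414751 at 1.12 and 10414911 at 1.102. Without NK replicate 2 the last fell to 0.92. Of 6 alpha probe sets that list a common mRNA record, 4 were among the 8 (10414751, 10414775, 10414911 and 10414960), as were 4 of the other 24; these 6 share an annotated transcript and are not independent of each other.

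**Figure D3:**
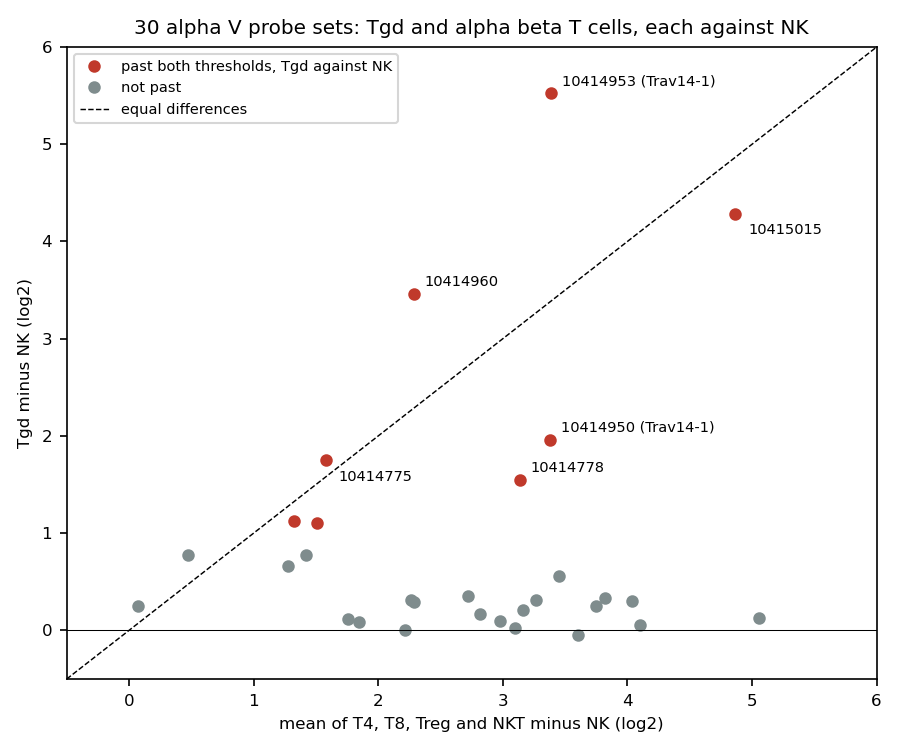
Each point is 1 of the 30 alpha V probe sets; the vertical axis gives Tgd minus NK and the horizontal axis the mean of NKT, Treg, T8 and T4 minus NK, both in log2, and the dashed line marks equal differences. The 22 probe sets in grey, which did not pass both thresholds in Tgd against NK, lie between -0.05 and 0.78 on the vertical axis, and the 8 in red, which did, reach 5.52.

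Among the 8, 10414960 read 11.56 and 11.60 in Tgd, above all other arrays: 9.36 and 9.52 in NKT, 10.35 and 10.61 in Treg, 10.77 and 10.77 in T8, 10.96 and 10.92 in T4, and 7.52 to 8.20 in the TCR-negative populations. Its difference from the alpha beta T populations was 1.17 ± 0.08 (adjusted p = 1.08e-07), and 0.85 without NKT, under the 2-fold limit. On 10415015 Tgd read 7.98 and 8.19, between NKT at 6.86 and 7.01 and Treg at 8.63 and 8.95, while T8 had 9.27 and 9.53 and T4 had 9.65 and 9.43. This probe set therefore read well above the TCR-negative arrays in every T population. Tgd differed by -0.58 ± 0.16 from the alpha beta T populations (adjusted p = 0.0394), and by -1.16, past both thresholds, without NKT. Only 2 members listed a segment with dv in its name: 10414778, with Trav14d-3-dv8 and Trav14n-2, was higher in Tgd than in NK by 1.54 ± 0.18, and 10414793, with Trav16d-dv11, gave 0.32 ± 0.16 and did not pass.

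The 2 probe sets named Trav14-1 disagreed on Tgd. On 10414953 Tgd read 10.94 and 10.91, against 6.95 and 7.41 in NKT, 9.31 and 9.43 in Treg, 8.94 and 9.25 in T8, and 9.47 and 9.56 in T4; the TCR-negative arrays read 3.68 to 5.44. Tgd were the highest population there, by 2.13 ± 0.17 over the alpha beta T populations (adjusted p = 5.33e-07). On 10414950 Tgd read 6.54 and 6.97, against 6.46 and 6.72 in NKT, 8.29 and 9.07 in Treg, 8.35 and 8.52 in T8, and 8.96 and 9.03 in T4; the TCR-negative arrays read 4.11 to 5.04. Here Tgd were lower than the alpha beta T populations, by -1.42 ± 0.18 (adjusted p = 6.72e-05), and overlapped NKT. Both directions also held without NKT, at 1.60 and -1.95. Over the individual arrays the 2 probe sets correlated at r = 0.8741, and both put NKT below Treg, T8 and T4. No value shows which of them reads the segment it is named for.

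**Figure D4:**
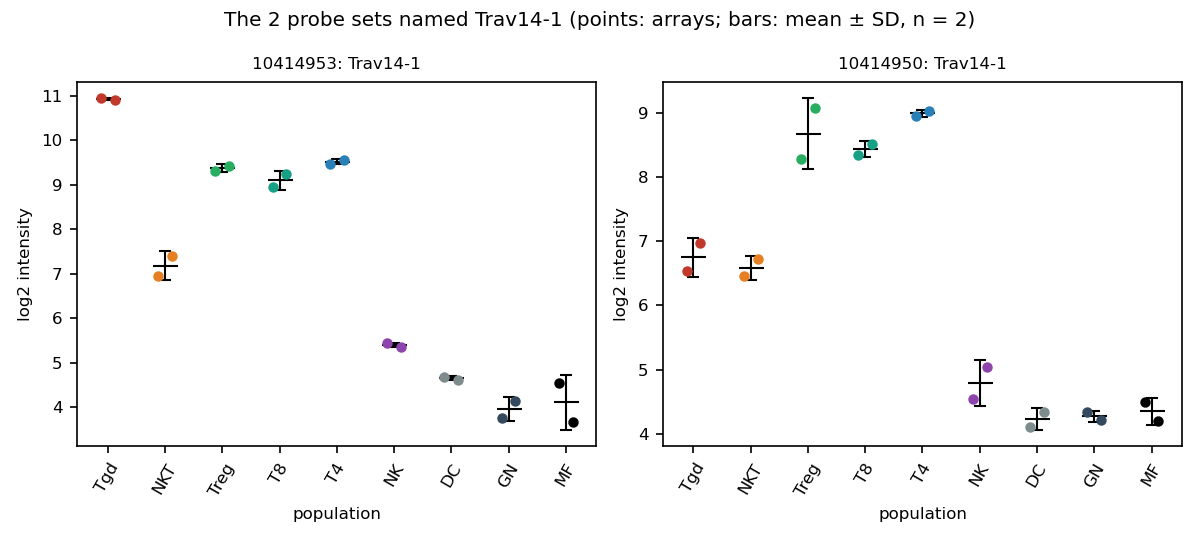
Log2 intensity of the 2 probe sets named Trav14-1 by population; points are arrays, horizontal bars means and error bars SD (n = 2), and the vertical axes do not start at 0. Tgd are highest on 10414953 at 10.91 and 10.94, but near NKT on 10414950 at 6.54 and 6.97.

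Other shared names behaved in different ways. The 8 probe sets listed with Trav3-3 and Trav3n-3 alone had ranges over the 9 populations of 1.04 to 6.00, pairwise correlations of 0.5740 to 0.9962 and their highest mean in T4, T8 or Tgd, so this pair of symbols does not stand for 1 pattern. The 3 listed as Trav13-5 with both Trav3 symbols correlated at 0.9355 to 0.9851 but differed in range (2.21 to 4.03) and in the highest population, T4 or Tgd. In contrast, the 3 with Trav9d-3, Trav9d-4 and both Trav3 symbols correlated at 0.9956 to 0.9986, all highest in T4, and the 2 with 4 Trav12 symbols at 0.9973, both highest in T8. All these correlations are over the individual arrays, replicates included, and are descriptions. Of the 35 members, 21 share an mRNA record with another member.

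Within the TCRB-gated cells, NKT were lower than T4 and T8 on most alpha probe sets. Of 30, 24 passed as lower in NKT than the mean of T4 and T8, where 1.32% of all probe sets did, and on all 30 the NKT mean lay below those of both T4 and T8. The median difference was -1.31 over the alpha members, against 0.04 over all probe sets. The largest was -2.69 ± 0.19 on 10414787 (Trav3-3 with Trav3n-3, adjusted p = 4.83e-08), which read 6.03 and 6.95 in NKT, against 8.88 and 8.84 in T8 and 9.70 and 9.30 in T4. Its Tgd arrays, 4.92 and 4.89, were lower still, and the TCR-negative arrays lay at 4.35 to 4.75. Others were 10415015 at -2.54 ± 0.18, Trav12-2 (10414958) at -2.28 ± 0.23, 10414953 at -2.13 ± 0.19 and 10414950 at -2.12 ± 0.19, all with adjusted p-values at or below 3.12e-06.

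Every alpha beta T array of these members lay above the TCR-negative arrays, NKT included. At the small end, 10414909 differed by -1.01 ± 0.22 (adjusted p = 0.00502) and fell under the 2-fold limit after quantile normalization (-0.96), without NKT replicate 2 (-0.90) and without T4 replicate 2 (-0.79). Without T4 replicate 2 the count of lower members was 21, its lowest value. The 6 alpha members that did not pass had differences of -0.93 to -0.23. None of the 4 CD3 chains passed by limma in this comparison (1 was lower at an unadjusted p under 0.05), and their median difference was 0.01.

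T8 and T4 differed past both thresholds on 4 probe sets. Among the 35 members, 4 were lower in T8 than in T4, where 0.486% of all probe sets passed as lower, and none was higher by limma, where 0.995% were; at an unadjusted p under 0.05, 13 were lower and 3 higher. The 3 gamma probe sets given above made up most of the 4, and the remaining one was 10414784, listed as Trav4d-4 with both Trav3 symbols. It read 10.59 and 10.52 in T8, against 11.67 and 11.59 in T4, a difference of -1.07 ± 0.13 (adjusted p = 7.16e-05). Treg read 11.46 and 11.42 on this probe set, close to T4. The median difference over the 30 alpha members was -0.23. The T8 mean was above that of T4 on 5 of them, by at most 0.70 (10414909), and without T4 replicate 2 that difference was 1.15 and passed.

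Treg and T4 differed past both thresholds on 1 member. The Treg mean was below that of T4 on all 30 alpha members, with a median difference of -0.47, but only 10414711 (Trav3-3 with Trav3n-3) passed as lower, where 0.377% of all probe sets did. At an unadjusted p under 0.05, 21 of the 35 were lower. The probe set 10414711 read 6.59 and 6.25 in Treg, against 7.67 and 7.22 in T4, a difference of -1.03 ± 0.15 (adjusted p = 0.000645) that was under the limit without Treg replicate 3 (-0.86) or without T4 replicate 2 (-0.80). None was higher by limma at an adjusted or an unadjusted p under 0.05, where 0.602% of all probe sets passed as higher. Replicates of Treg were far apart on some members: 12 had gaps over 0.5, the largest being 1.21 on Trav12-2, with 5.16 and 6.36 in Treg and 6.34 and 6.47 in T4. The T4 label sets no limit on CD25, and Il2ra, the gene of CD25, was at 12.66 ± 0.18 in Treg and 11.00 ± 0.01 in T4.

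**Figure D5:**
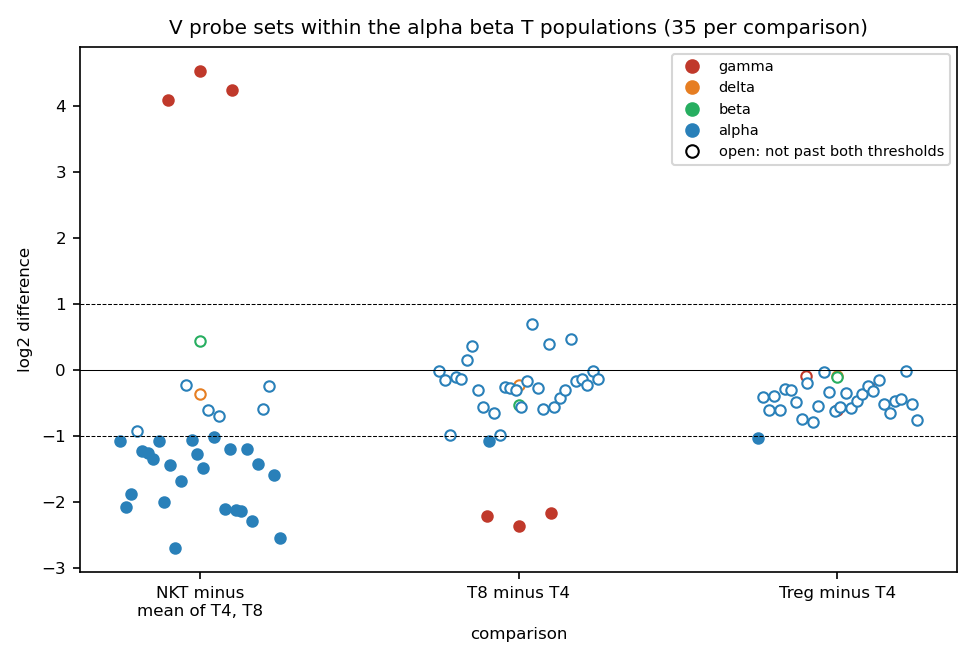
Log2 differences of the 35 V probe sets in 3 comparisons, NKT minus the mean of T4 and T8, T8 minus T4, and Treg minus T4; filled points passed both thresholds and dashed lines mark the 2-fold limit. The 3 gamma points lie above 4 in NKT minus T4 and T8 and near or below -2 in T8 minus T4, and 24 alpha points are filled in the first comparison.

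Genes that assemble or serve the receptor stood higher in T cells as a whole, and some differed among the T populations. Of 21 measured genes on a list of CD3 chains, proximal signalling and co-receptor genes and recombination genes, 16 were higher in the T populations than in the TCR-negative ones, and none was lower by limma (1 at an unadjusted p under 0.05); of all probe sets, 2.96% passed as higher. Over the 5 T populations 6 passed the F test (12 at an unadjusted p under 0.05), where 6.96% of all probe sets did: Trat1, Themis, Cd6, Cd5, Cd247 and Cd28, with ranges of 1.06 to 1.97. Against the TCR-negative populations, the T populations were higher on Cd3g by 6.03 ± 0.11 and on Cd3e by 5.08 ± 0.08. In the same comparison Themis, a signalling protein needed for thymic selection, was higher by 5.31 ± 0.07 and the adaptor Lat by 4.27 ± 0.06. Between Tgd and the alpha beta T populations none of the 21 passed by limma, although 4 were higher and 5 lower at an unadjusted p under 0.05. None passed between NKT and the mean of T4 and T8 either, where 3 were higher and 8 lower at an unadjusted p under 0.05. Cd3e was at 12.90 ± 0.15 in Tgd, 12.90 ± 0.00 in NKT and 12.79 to 12.92 in the means of Treg, T8 and T4. T8 was lower than T4 on Trat1, which stabilises the receptor complex, by -1.97, and Treg was lower than T4 on Themis by -1.49.

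Against NK, 10 of the 21 were higher in Tgd, where 1.83% of all probe sets were. NK exceeded the myeloid populations on 12, where 4.86% of all probe sets passed, among them Cd2, an adhesion receptor, by 5.20 ± 0.13, the kinase Zap70 by 3.30 ± 0.10, and Cd247, the CD3 zeta chain that NK receptors also use, by 2.91 ± 0.13. DC exceeded the mean of GN and MF on 2, where 4.84% of all probe sets passed, the kinase Fyn by 2.43 and Cd5, an inhibitory receptor of T cells, by 1.18. Fyn read 10.29 in DC, 9.35 in MF and 6.37 in GN, so its difference rests largely on the low GN level. Of the recombination genes, Rag1 and Rag2, which cut the segments, passed in none of these comparisons. Dntt, which adds bases at the joins, was higher in Tgd than in NK by 1.06. It read 6.39 in Tgd, 6.17 in T4 and 5.33 in NK, near or below the lower quartile of the arrays.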

How the data were processed

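The authors deposited intensity values on a linear scale. Per the submitters' processing notes the tools were RMA and Affymetrix Power Tools; versions, and whether all 18 arrays were normalized together, are not given in the sources used here. RMA compresses differences near background, and the number of arrays limits the precision. Gene symbols came from GEO's annotation of the array and were brought up to date through Entrez numbers (RefSeq, GRCm38.p6); 22824 of 24922 probe sets were listed with a gene, and the 25 symbols of the members all matched unchanged. Members, gene lists and comparisons were chosen with earlier results of these data known.

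Samples were grouped by title. Log2 of the deposited intensity was modelled in R 4.3.3 with limma 3.58.1, using lmFit, contrasts.fit and eBayes (mean-variance trend). All probe sets and all 18 arrays entered 1 fit, with 1 mean per population and no covariate, giving 9 residual and 6.30 prior degrees of freedom. P-values of 2 F tests and 8 two-sided contrasts were adjusted by the Benjamini-Hochberg method over all probe sets. A call needed an adjusted p under 0.05 and a difference, or a range of means, of at least 1 (log2). The fit was tested on simulated data. Probe sets named were those with the largest called differences (up to 8 per direction and contrast, up to 5 per locus and F test), listed segments such as Trav14-1, and shared symbols whose probe sets disagreed; a few others are named as exceptions. Genes of other lists were read from probe sets with 1 symbol. Alternatives covered normalization, variance model, level filters, thresholds, naming, the replicate number as a block, and leaving out arrays or populations.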

Additional observations from a re-analysis of the deposited data

How the results depend on the processing

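No called difference changed sign under the alternatives run. Of the member values recomputed, 9762 kept their call, 51 passed only under the alternative (37 of them because the 2-fold limit was dropped) and 17 no longer passed. With each array left out in turn, the count over 9 populations was 34 to 35, over 5 T populations 29 to 30, for T against TCR-negative populations 33 higher, for Tgd against alpha beta T populations 6 higher and 21 lower, for NK against myeloid 5 to 6 higher, for Tgd against NK 11 to 13 higher, and for NKT against T4 and T8 3 higher and 21 to 24 lower. For T8 against T4 it was 0 to 1 higher and 4 to 5 lower, for Treg against T4 0 to 1 lower, and for DC against GN and MF 2 to 3 higher and 0 to 1 lower.

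With 1 probe set per single symbol only 8 members were tested, so counts fell by construction: 8 and 7 in the F tests, 7 higher in T populations, 3 higher and 4 lower in Tgd against alpha beta T populations, 3 higher in NK against myeloid, 3 higher in Tgd against NK, 1 higher and 4 lower in NKT, 1 lower in T8, 0 lower in Treg and 1 higher in DC. Without the 2-fold limit, NK against myeloid had 11 higher and 1 lower, Treg against T4 had 7 lower and DC had 1 lower. Among probe sets above the 75th percentile of level, 0 were lower in Treg, since 10414711 was not tested. Without NKT, Tgd against alpha beta T populations had 5 higher and 22 lower.

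Replicate numbers were taken from the titles. Deviations of arrays with the same number correlated at r = -0.1891 to 0.4000 over 18 pairs of populations (median 0.14), over 0.1 in 11 pairs and not in the other 7, and the labels name nothing that a number shares, so the numbers were not taken as a pairing. With the replicate number as a block, 34 members passed over 9 populations, 29 over the 5 T populations, and 22 were lower in NKT; the other counts were those of the unblocked fit. Quantile normalization moved array medians by at most 0.08 and member values by at most 0.32; it left Trbv1 at 1.05 in Tgd against NK, past the 2-fold limit. DC against GN and MF could not be fitted without DC. Fitting only the arrays of a comparison gives no other fit for the 2 results that use all 9 populations.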
